A study of Drosophila melanogaster with 8 samples.

Results

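Vitelline membrane and early eggshell genes of Drosophila melanogaster were examined in ovaries of otefin (ote) mutant and control females. The set was fixed by gene name and held 8 genes, Vm26Aa, Vm26Ab, Vm26Ac, Vm32E, Vm34Ca, Vml, psd and dec. A member was counted as measured where the probe annotation assigned a probe set to that gene and to no other. This left 6 of the 8 genes, of 11982 genes measured in all, with 1 probe set each. Vm26Ab and Vml had no probe set assigned to them alone and were not analysed here.

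The eggshell is laid down by the somatic follicle cells that surround each growing oocyte. Its innermost layer, the vitelline membrane, is secreted first, in the middle of oogenesis, and the chorion is added outside it by the same cells at the end of oogenesis. Vitelline membrane proteins are small secreted proteins that share a hydrophobic domain with conserved cysteines and become cross-linked into an insoluble sheet around the oocyte. Each gene of the eggshell is transcribed in a restricted window of egg chamber development, so the RNA of a whole ovary carries the signal of those egg chambers that are in that window.

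The study asked how loss of Ote, a LEM-domain protein of the nuclear lamina, affects transcription when the germline is kept alive by lowering the dose of the checkpoint kinase Chk2. Each sample was RNA from about 100 pairs of ovaries of virgin females, dissected 4 to 6 hours after eclosion per the labels, amplified and hybridised to 1 Affymetrix Drosophila 2.0 array. The 4 null samples carried otefinPk over otefinG, and the 4 het samples carried otefinPk over the CyO balancer. All 8 samples also carried 1 mutant chk2 allele, Chk2P30 in replicates 1 and 2 of each label and Chk2P6 in replicates 3 and 4, so no array measured an ovary that was wild type for both genes. The methods place a different ote allele on the P30 chromosome and describe the females as 1-day-old. The balancer and the second ote allele differ between the labels together, and a chk2 allele cannot be told apart from the rest of the chromosome or stock that carries it.

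Array medians lay between 5.61 and 5.72 on the log2 scale, and any pair of arrays correlated at 0.957 to 0.990 over all probe sets. The Ote signal was 9.26, 7.27, 9.66 and 9.29 in het 1 to 4, and 7.58, 7.48, 8.56 and 8.66 in null 1 to 4. Ote was thus lowest in the array labelled het 2, below every null array, and the targeted gene did not bear out that label. Null 4 had the highest Ote signal of the null arrays. The chorion genes, which are also eggshell genes, reached their highest mean there, so leaving out null 4 is not independent of eggshell signal. The spread, the differences and the likeness to other genes are given with these arrays and without het 2 or both.

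Vm26Aa and Vm26Ac encode vitelline membrane proteins and lie side by side on chromosome 2L, in the order Vm26Ab, Vm26Ac, Vm26Aa and psd in the Release 6 plus ISO1 MT assembly. The Vm26Aa signal was 11.71, 8.72, 12.63 and 11.97 in het 1 to 4 and 10.99, 9.54, 12.04 and 12.42 in null 1 to 4. The Vm26Ac signal was 9.21, 4.58, 11.09 and 8.57 in het 1 to 4 and 6.75, 9.12, 10.31 and 11.39 in null 1 to 4. Both genes were lowest in het 2, and the het and null arrays overlapped for both. They parted in the pair null 1 and null 2: Vm26Aa was 1.45 higher in null 1, whereas Vm26Ac was 2.38 lower there. Vm26Ac in het 2 was the only value of any member that lay below the median of its array.

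Vm32E, a vitelline membrane protein gene whose product also reaches the chorion, and Vm34Ca, a further gene of the family, lie elsewhere on 2L. The Vm32E signal was 10.09, 7.74, 12.32 and 10.58 in het 1 to 4 and 9.06, 10.53, 11.71 and 11.73 in null 1 to 4. The Vm34Ca signal was 12.82, 11.51, 13.26 and 12.70 in het 1 to 4 and 12.59, 12.11, 13.02 and 13.21 in null 1 to 4. Again het 2 was the lowest array and het 3 the highest for each gene, and the labels overlapped. Vm34Ca stayed within 1.75 log2 units over the 8 arrays, the narrowest range of the 6 members.

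The last pair of genes encode proteins that act in building the layers. Palisade, the product of psd, is needed for the vitelline membrane protein of Vm26Ab to be laid down properly, and dec encodes precursors that are cut into several proteins needed for assembly of the eggshell. The psd signal was 9.29, 7.33, 10.81 and 9.72 in het 1 to 4 and 8.63, 7.85, 10.76 and 10.004 in null 1 to 4. The dec signal was 11.55, 7.26, 12.70 and 11.11 in het 1 to 4 and 8.30, 9.19, 11.55 and 11.56 in null 1 to 4. Het 2 was lowest and het 3 highest for both, with the null arrays inside the het range.

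**Figure D1:**
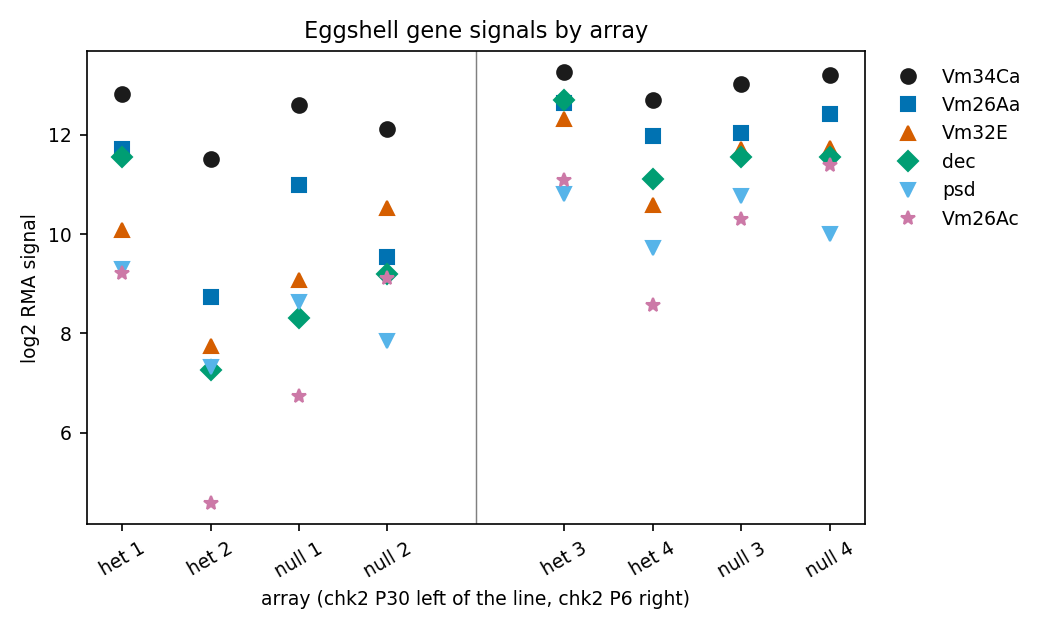
Log2 RMA signal of the 6 measured genes (vertical axis) in each of the 8 arrays (horizontal axis), with the 4 arrays of the chk2 P30 background left of the line and the 4 of the P6 background right of it. Each symbol is 1 array. The symbols sit lowest in het 2, where Vm26Ac reached 4.58, and Vm34Ca is the top symbol in every array.

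The 6 genes thus moved together from array to array. Het 2 gave the lowest signal for 6 of 6 genes, and null 1 was among the lowest 3 arrays for 6 of 6 and null 2 for 4 of 6. Het 3 gave the highest signal for 5 of 6 genes, and null 4 for Vm26Ac. Both het 3 and null 4 were among the highest 3 arrays for 6 of 6 genes. The mean over the 6 genes was 10.78, 7.86, 12.14 and 10.78 in het 1 to 4 and 9.39, 9.72, 11.57 and 11.72 in null 1 to 4. In whole ovaries, fewer egg chambers of the right stage and less RNA per follicle cell cannot be told apart.

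The spread over the 8 arrays was wide compared with most of the array. Vm26Ac had an SD of 2.28 and ranged over 6.81 log2 units, which is 112-fold. For dec the SD was 1.91 and the range 43.4-fold, for Vm32E 1.52 and 24.0-fold, for Vm26Aa 1.41 and 15.0-fold, and for psd 1.28 and 11.2-fold. Of all probe sets tested, 0.261% had a larger SD than Vm26Ac and 1.45% a larger SD than psd. Vm34Ca had an SD of 0.59 and a 3.36-fold range, and 13.1% of probe sets spread more widely. Its signal was also near the top of the scale, with 1.83% of probe sets brighter on average. Without het 2 the SD and range were 1.60 and 25.0-fold for Vm26Ac, 1.54 and 21.2-fold for dec, 1.13 and 9.57-fold for Vm32E, 1.06 and 8.55-fold for Vm26Aa, 1.09 and 7.81-fold for psd, and 0.40 and 2.22-fold for Vm34Ca. The share of probe sets with a larger SD was then 0.879% for Vm26Ac, 2.17% for psd and 27.1% for Vm34Ca. With null 4 left out as well, the SDs were 0.39 for Vm34Ca to 1.65 for dec.

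Part of this spread lay between arrays that share both label and background, and the difference between backgrounds given below also enters it. The pair het 1 and het 2 differed by 4.63 for Vm26Ac, 4.29 for dec, 2.98 for Vm26Aa, 2.35 for Vm32E, 1.97 for psd and 1.31 for Vm34Ca, always with het 1 higher. This was the widest of the 4 such pairs for every gene. The pair het 3 and het 4 differed by 0.56 for Vm34Ca to 2.52 for Vm26Ac, with het 3 higher for each gene. In the pair null 3 and null 4 the difference was 0.01 for dec, 0.02 for Vm32E, 0.19 for Vm34Ca, 0.37 for Vm26Aa, 0.76 for psd and 1.08 for Vm26Ac. The pair null 1 and null 2 split the genes: Vm26Aa, psd and Vm34Ca were higher in null 1 by 1.45, 0.79 and 0.48, while Vm26Ac, Vm32E and dec were higher in null 2 by 2.38, 1.47 and 0.89.

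The order of the mean signals was Vm34Ca (12.65 ± 0.59, SD, n = 8), Vm26Aa (11.25 ± 1.41), Vm32E (10.47 ± 1.52), dec (10.40 ± 1.91), psd (9.30 ± 1.28) and Vm26Ac (8.88 ± 2.28). Probe sets differ in affinity, so this is an order of signals and not of RNA amounts. Vm34Ca was first in 8 of 8 arrays, ahead of Vm26Aa by 1.4 ± 0.85. Vm26Aa was above Vm32E in 7 of 8 arrays, but their mean difference of 0.78 was smaller than its SD of 0.93. Vm32E and dec differed by 0.07 ± 0.86 and psd and Vm26Ac by 0.42 ± 1.46, each within the spread, with the first of each pair higher in 5 of 8 arrays. The step from dec to psd was 1.10 ± 0.91, in the same direction in 6 of 8 arrays.

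The first comparison of the design is null against het, which asks whether loss of Ote changes the transcription of these genes. The means were 11.26 ± 1.73 in het and 11.25 ± 1.29 in null for Vm26Aa, 8.36 ± 2.74 and 9.39 ± 1.99 for Vm26Ac, and 10.18 ± 1.89 and 10.76 ± 1.26 for Vm32E (SD, n = 4 arrays per label). They were 12.57 ± 0.75 and 12.73 ± 0.49 for Vm34Ca, 9.29 ± 1.46 and 9.31 ± 1.32 for psd, and 10.66 ± 2.36 and 10.15 ± 1.66 for dec. Thus 4 genes had a higher mean in null and 2 a lower one, and each difference was smaller than the SD within a label.

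The differences, null minus het, were -0.01 for Vm26Aa (SE 0.94, 95% interval -2.19 to 2.17), 1.03 for Vm26Ac (SE 1.48, -2.39 to 4.44) and 0.58 for Vm32E (SE 0.99, -1.72 to 2.87). They were 0.16 for Vm34Ca (SE 0.40, -0.76 to 1.08), 0.02 for psd (SE 0.86, -1.96 to 2.01) and -0.51 for dec (SE 1.26, -3.42 to 2.40). The exact two-sided permutation p lay between 0.571, for Vm26Ac, and 1.0, where 0.0286 is the smallest that 4 against 4 arrays allow. Except for Vm34Ca, whose interval ended just past a 2-fold change in one direction, the intervals included more than a 2-fold change either way. This fit has no term for the background, so the offset between backgrounds given below widens these intervals. With a background block the differences were the same. The SE was then 0.65 for Vm26Aa, 1.12 for Vm26Ac, 0.64 for Vm32E, 0.30 for Vm34Ca, 0.48 for psd and 0.89 for dec, and 0 members were called.

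At the thresholds the study used, a 2-fold change with an unadjusted p under 0.05, 0 of 6 members were called, against a background of 0.133% of all probe sets called higher and 0.016% called lower (limma). At a Benjamini-Hochberg adjusted p under 0.05 the count was 0 of 6 members and 0% of all probe sets, and at an unadjusted p under 0.05 alone it was 0 of 6 members and 423 probe sets (2.25%). The same comparison without moderation of the variance also gave 0 adjusted calls and 0 members at an unadjusted p under 0.05. The median difference over the 6 members was 0.09 and over all probe sets -0.0072.

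The sign of these small differences was not stable. Without het 2, null minus het was -0.23 for Vm26Ac, -0.24 for Vm32E, -0.20 for Vm34Ca, -0.63 for psd, -0.86 for Vm26Aa and -1.64 for dec, all below 0, which turned the sign for Vm26Ac, Vm32E, Vm34Ca and psd. The sign of Vm26Aa also turned without het 1, het 3, het 4, null 1 or null 2 (0.07 to 0.56), that of dec without het 3 (0.17) or null 1 (0.11), and that of psd without null 3 (-0.46) or null 4 (-0.21). Without both het 2 and null 4, it was -0.90, -0.56, -0.35, -0.86, -1.24 and -2.11 for the same genes in the same order, and again 0 members were called.

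The second comparison sets the P6 background against the P30 background, with the label as a covariate. All 6 genes had a higher mean in P6. The 4 P6 arrays were above the 4 P30 arrays without overlap for Vm26Aa, Vm32E and psd, which is 3 of 6 members against 2.64% of all probe sets. The gaps between the lowest P6 and the highest P30 array were narrow, from 11.97 to 11.71 for Vm26Aa, from 10.58 to 10.53 for Vm32E and from 9.72 to 9.29 for psd. For Vm26Ac and dec the P6 array was the higher one in 14 of 16 pairings of a P6 with a P30 array, and for Vm34Ca in 15 of 16.

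The group means in P30 and P6 were 10.24 ± 1.36 and 12.27 ± 0.31 for Vm26Aa, 9.36 ± 1.24 and 11.59 ± 0.73 for Vm32E, and 8.28 ± 0.87 and 10.32 ± 0.55 for psd (SD, n = 4 arrays per background). They were 7.42 ± 2.21 and 10.34 ± 1.26 for Vm26Ac, 9.08 ± 1.83 and 11.73 ± 0.68 for dec, and 12.26 ± 0.58 and 13.05 ± 0.25 for Vm34Ca. For every gene the SD was larger among the P30 arrays, the background that holds het 2.

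In folds, the P6 mean was 7.60 times the P30 mean for Vm26Ac (log2 difference 2.93, SE 1.12), 6.29 times for dec (2.65, SE 0.89) and 4.69 times for Vm32E (2.23, SE 0.64). It was 4.14 times for psd (2.05, SE 0.48), 4.07 times for Vm26Aa (2.02, SE 0.65) and 1.73 times for Vm34Ca (0.79, SE 0.30). Leaving out 1 array at a time moved the log2 difference over 2.00 to 3.85 for Vm26Ac, 1.83 to 3.54 for dec, 1.70 to 2.64 for Vm32E, 1.67 to 2.46 for psd, 1.42 to 2.61 for Vm26Aa and 0.52 to 1.05 for Vm34Ca. For each gene the lowest value was that without het 2 and the highest that without het 1. Without null 4 alone the differences were 0.76 for Vm34Ca to 2.71 for Vm26Ac. The exact two-sided permutation p was 0.0286 for Vm26Aa, Vm32E and psd, the smallest the design allows, 0.0571 for Vm34Ca, and 0.0857 for Vm26Ac and dec. The adjusted p over all probe sets was 0.512 for each gene (limma), so no member passed the correction.

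At the 2-fold and unadjusted p thresholds, 5 of 6 members were called higher in P6, all but Vm34Ca, against 1.11% of all probe sets, and 0 were called lower, against 0.522%. At an unadjusted p under 0.05 the count was 6 of 6 members and 1828 probe sets (9.74%), and at an adjusted p under 0.05 it was 0 members and 0% of probe sets. Without moderation of the variance there were 0 adjusted calls and 3 members at an unadjusted p under 0.05. The median difference over the 6 members was 2.14, and over all probe sets it was -0.02.

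Mean signals of genes of other tissues also differed between the backgrounds, in some lists through single arrays. Muscle sheath genes had a lower mean in P6 in 4 of 4 (median -0.49), among them Mlc1, a myosin light chain (-0.67, SE 0.15, exact permutation p = 0.0286, adjusted p = 0.512 by limma, r = -0.90 with the members' mean). Over the 4 muscle sheath genes the exact permutation p ran from 0.0286 to 0.514, and r with the members' mean from -0.91 to -0.25. Fat body genes were lower in 4 of 4 (median -0.86) and salivary glue genes in 6 of 6 (median -2.65), with 0 called in each of these 3 lists. Midgut genes were lower in 6 of 8 (median -0.49, 1 called), germline genes in 4 of 7 (median -0.04) and male accessory gland genes in 0 of 5 (median 0.93). The salivary glue mean was 9.85 in het 1 and 9.14 in null 1. In het 2 and null 2, the other P30 arrays, it was 4.62 and 4.50, inside the P6 range of 4.28 to 5.55. The male accessory gland mean was 8.50 in het 3 and 3.99 to 5.09 in the other arrays. The part of these differences in the members' values was not tested.

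Single arrays changed some of these calls. psd and Vm32E were called with any 1 array left out. Vm26Ac was not called without het 2, het 3, null 1, null 3 or null 4 (unadjusted p = 0.0519 to 0.0967, limma), with differences of 2.00, 2.42, 2.45, 3.14 and 2.71. dec was not called without het 3 (2.37) or null 1 (2.45), nor Vm26Aa without null 2 (1.75), while Vm34Ca was called without het 1 (1.05). Except for Vm26Ac without het 2, the folds of the lost calls moved by less than 1.5 times. The count was thus 3 without het 3 or null 1 and 6 without het 1. Without both het 2 and null 4 the number was 1, psd, with a difference of 1.75, and the differences of the other genes were 0.41 to 1.64, still with P6 higher.

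**Figure D2:**
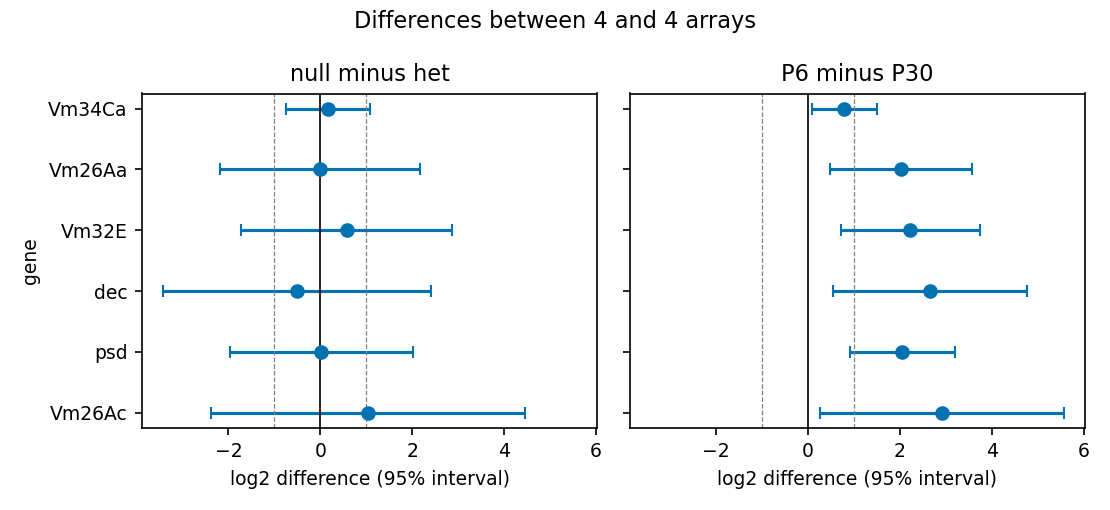
Log2 difference of each of the 6 genes between 4 and 4 arrays (points) with its 95% interval from limma (bars), for null minus het on the left and P6 minus P30 on the right, where dashed lines mark a 2-fold change. The null minus het points lie between -0.51 and 1.03 with intervals across 0, and the P6 minus P30 points lie between 0.79 and 2.93.

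The third comparison asks whether the effect of the label differed between the backgrounds. Null minus het was 0.05 in P30 and -0.07 in P6 for Vm26Aa, 1.04 and 1.02 for Vm26Ac, 0.88 and 0.27 for Vm32E, 0.18 and 0.13 for Vm34Ca, -0.07 and 0.12 for psd, and -0.67 and -0.35 for dec. The interaction lay between -0.61, for Vm32E (SE 1.37), and 0.31, for dec (SE 1.94), each smaller than its SE. At an unadjusted p under 0.05, 0 of 6 members were called against 1.13% of all probe sets, and at an adjusted p under 0.05 the count was 0 members and 0% of probe sets, with 0 members also without moderation. With 2 arrays per label and background, an interaction of this size was not detectable.

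The members were then compared with each other over the 8 arrays. Across the 15 pairs of genes, Pearson's r lay between 0.80 and 0.98 with a median of 0.90, and Spearman's rho between 0.81 and 0.98. All 15 pairs passed an exact permutation test after adjustment over the 21 relations computed, with the highest adjusted p at 0.0246 for r and 0.0305 for rho. The permutation shuffled all 8 arrays regardless of background, so the offset between backgrounds enters the p of all 21 relations. No p was computed within backgrounds. Without the 2 arrays farthest from the median of the first gene of the pair, r lay between 0.56 and 0.96, and within backgrounds it lay between 0.51 and 0.96. Leaving out those arrays lowered r for 12 pairs and raised it for 3, and taking r within backgrounds lowered it for all 15.

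The closest pair was Vm26Aa and Vm34Ca (r = 0.98, and 0.96 within backgrounds), and psd ran close to both (r = 0.94 with Vm26Aa and 0.93 with Vm34Ca). Vm26Ac and Vm32E formed the other tight pair (r = 0.97, and 0.96 within backgrounds). Across these sets r was lower, with 0.80 for Vm26Aa with Vm26Ac and 0.80 for Vm26Aa with Vm32E, or 0.58 and 0.51 within backgrounds. Without het 2 and null 2, however, these became 0.94 and 0.96, so the lower values of these pairs rested on those arrays. The other pairs across the sets fell instead, with other arrays left out. Without het 2 and null 1, Vm26Ac fell from 0.87 to 0.77 with Vm34Ca and from 0.81 to 0.62 with psd. Without het 2 and het 3, Vm32E fell from 0.86 to 0.56 with Vm34Ca and from 0.86 to 0.68 with psd. The pairs within the sets fell too. Without het 2 and null 2, r was 0.90 for Vm26Aa with Vm34Ca, 0.86 for Vm26Aa with psd and 0.82 for Vm34Ca with psd. These lay below the 0.94 and 0.96 of the pairs across the sets without the same arrays. Without het 2 and null 1, Vm26Ac with Vm32E was 0.88. The grouping into sets thus depended on the arrays used. Over all 8 arrays Vm26Ac ran closer to Vm32E, elsewhere on 2L, than to its direct neighbour Vm26Aa. Whether these correlations differ from each other was not tested. dec correlated about equally with all the others, with r of 0.90 for Vm26Aa, 0.90 for Vm26Ac, 0.90 for Vm32E, 0.89 for Vm34Ca and 0.91 for psd.

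**Figure D3:**
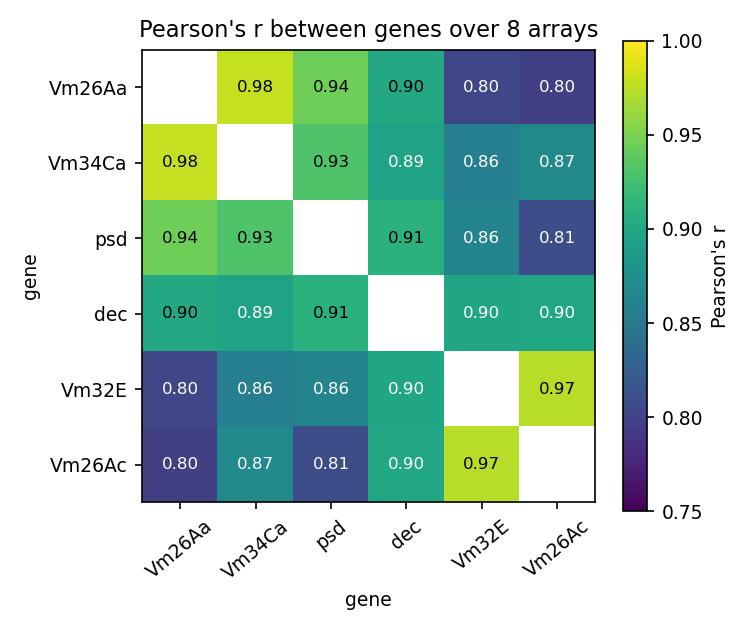
Pearson's r over the 8 arrays for each pair of the 6 measured genes, which are given on both axes, with lighter colour for higher r. The values run from 0.80 to 0.98, and the pairs Vm26Aa with Vm34Ca and Vm32E with Vm26Ac stand out at 0.98 and 0.97.

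Genes of yolk and chorion were set beside the members. The yolk list held the yolk proteins Yp1, Yp2 and Yp3, which fat body and follicle cells secrete for the oocyte, and yl, the oocyte receptor that takes them up. The mean yolk signal was 11.93, 11.03, 12.70 and 11.91 in het 1 to 4 and 11.82, 10.86, 12.75 and 11.64 in null 1 to 4. The correlation with this mean was highest for psd (r = 0.91, exact permutation, adjusted p = 0.0089; rho = 0.79, adjusted p = 0.0366) and lowest for Vm26Ac (r = 0.55, adjusted p = 0.151; rho = 0.43, adjusted p = 0.299). After adjustment 4 of 6 members passed by r and 1 of 6, psd, by rho. Without the 2 arrays farthest from the median of each gene, dec was highest (r = 0.85), psd at 0.77, Vm26Ac at 0.41 and Vm32E lowest (0.27). The arrays left out were het 2 and null 1 for dec and Vm26Ac, het 2 and null 2 for psd, and het 2 and het 3 for Vm32E. These r thus come from different sets of arrays, and their order is not a like comparison. Within backgrounds psd was highest (0.88) and Vm26Ac lowest (0.18).

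The chorion list, proteins of the outer eggshell, had 7 of 9 genes measured. Their mean signal was 10.51, 6.28, 10.50 and 6.66 in het 1 to 4 and 5.74, 9.07, 7.69 and 12.39 in null 1 to 4. A correlation with this mean was not computed. In the pair null 1 and null 2 the chorion mean was higher in null 2, as were Vm26Ac, Vm32E and dec. In het 1 and het 4 the 6 members had the same mean of 10.78, although the chorion means were 10.51 and 6.66.

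**Figure D4:**
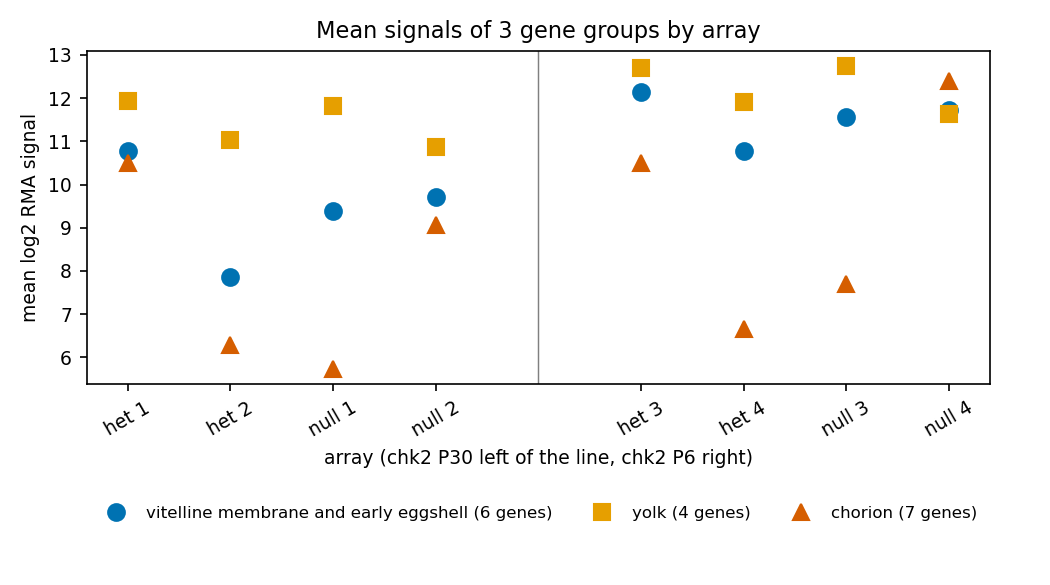
Mean log2 RMA signal of the 6 members, the 4 yolk genes and the 7 measured chorion genes (vertical axis) in each array (horizontal axis), with P30 arrays left of the line and P6 arrays right of it. The chorion means range from 5.74 to 12.39 and differ between arrays of one label and background, for example 10.50 in het 3 and 6.66 in het 4, while the members' means in those arrays were 12.14 and 10.78.

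Between null and het, 4 of 7 chorion genes were higher and 3 lower, with 0 called and a median of 0.05. The 4 with the smallest p were Cp7Fc (1.33), Cp38 (0.57), Cp16 (-0.49) and Cp36 (0.60). Of the 4 yolk genes 1 was higher and 3 were lower, with 0 called. Between P6 and P30, 7 of 7 chorion genes had a higher mean, with 0 called and a median of 1.37, and 4 of 4 yolk genes had a higher mean, with 1 called, yl (1.33, SE 0.53, adjusted p = 0.512, limma), and a median of 0.78, where 1.11% of all probe sets were called higher. The medians of 2.14 for the members, 1.37 for chorion and 0.78 for yolk were not tested against each other.

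Genes for eggshell assembly and cross-linking had 11 of 13 measured. Between null and het 6 were higher and 5 lower with 0 called, and the named 4 were tsl (0.29) and pip (-0.27), follicle cell genes for embryo patterning, clos (-0.30), an oocyte product of the vitelline membrane, and yellow-g2 (1.08), an eggshell protein of the yellow family. Between P6 and P30, 9 of 11 had a higher mean and 1 was called, fs(1)N (1.20, SE 0.35, exact permutation p = 0.0286, adjusted p = 0.512 by limma), against 1.11% of all probe sets. fs(1)N is an oocyte protein needed for vitelline membrane integrity. ndl, a protease secreted by follicle cells, differed by 0.87 (SE 0.26) and Pxt, a peroxidase-like gene, by 0.58 (SE 0.14).

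Within this list yellow-g and Fcp3C, a follicle cell protein gene, were lowest in het 2, het 4 and null 1, as the chorion mean was. They parted in het 1, where yellow-g was below its values in null 2 and null 3. Fcp3C and the chorion mean were higher in het 1 than in null 2 and null 3. yellow-g was 7.79, 5.20, 10.07 and 6.28 in het 1 to 4 and 4.98, 9.08, 7.89 and 10.02 in null 1 to 4, and Fcp3C was 12.20, 6.40, 12.15 and 7.06 in het and 6.87, 11.60, 9.72 and 12.74 in null. Both were low in het 4 and null 1 and high in null 2. Vm26Ac was likewise lower in het 4 (8.57) and null 1 (6.75) than in null 2 (9.12). Vm32E and dec were higher in null 2 than in null 1, but not than in het 4. Vm26Aa, psd and Vm34Ca were lower in null 2 than in either. The regulators of follicle cell genes had 7 of 11 measured, with 1 higher and 6 lower in null, 0 called, and EcR (-0.72), tai (-0.29), mirr (-0.39) and br (-0.33) named. Between P6 and P30, 6 were higher and 1 lower, with 0 called and a median of 0.57. Marker genes of follicle cells had 5 of 7 measured. Of these, 4 were higher and 1 lower in P6 (median 0.42, 0 called), and 5 were lower in null (median -0.19, 0 called). Their r with the members' mean ran from -0.54 to 0.86.

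RNA of other tissues also varied between arrays. The mean of the 8 measured midgut genes was 10.24 in null 2 and 6.16 to 8.30 in the other arrays. The mean of the 6 salivary glue genes was 9.85 in het 1 and 9.14 in null 1 against 4.28 to 5.55 elsewhere, and that of the 5 male accessory gland genes was 8.50 in het 3 against 3.99 to 5.09 elsewhere. The 4 measured muscle sheath genes had means of 11.12 to 12.19 and the 4 fat body genes of 9.24 to 10.51, in both cases lower in het 3 and null 4, where the members were high, than in het 2. Germline genes had means of 10.63 to 11.19. Whether these tissues entered the members' array to array spread was not tested.

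The genes whose pattern was most like the mean of the 6 members were listed from 2938 genes with an SD of at least 0.5, as a description over 8 arrays. Of these, 38 had r over 0.9 and 12 had r under -0.9. The highest 10 were borr (0.98), CG2694 (0.98), Vps16B (0.98), CG1146 (0.97), bcd (0.97), CG4586 (0.97), CycB3 (0.96), xmas (0.95), Ptp61F (0.95) and Usp32 (0.94). They include bcd, whose RNA is laid down in the oocyte as the anterior determinant of the embryo, CycB3, a cyclin of mitosis and meiosis, and borr, a subunit of the chromosomal passenger complex. Without het 2 the r of these 10 genes lay between 0.89 and 0.97, and without het 2 and null 4 between 0.87 and 0.99. Low values in het 2 and the offset between backgrounds enter each r.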

How the data were processed

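Ovary RNA was hybridised to 8 Affymetrix Drosophila 2.0 arrays, 4 per label and 2 per label and chk2 background. The deposited log2 values were made by the authors with RMA (background correction, quantile normalization and a summary per probe set, as that method is generally defined) using Affymetrix Expression Console 1.4.1 (named in the submitters' processing notes), whereas the methods name the Transcriptome Analysis Console. The log base is inferred, since the values ran from 2.37 to 14.45. No genome build is given for the values, and raw array files were not analysed here. Quantile normalization gives arrays the same distribution, so signals are relative within an array.

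Of 18952 probe sets, 183 controls were left out and 18769 were tested without a filter. Genes were named from the platform annotation and updated through a RefSeq gene table of the Release 6 plus ISO1 MT assembly. Where a gene of a comparison list had several probe sets of its own, only the one of highest mean was used. This applied to pip, clos and br among others, and their other probe sets are not reported here. limma 3.58.1 (R 4.3.3) was fitted to all probe sets, for null minus het, for P6 minus P30 with the label as covariate, and for their interaction. Calls used a 2-fold change with an unadjusted p under 0.05, as in the study, and separately a Benjamini-Hochberg adjusted p under 0.05. Intervals are 95% intervals from limma. Single genes and correlations were tested by exact two-sided permutation. The fit was tested on simulated data.

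The members and lists were chosen with earlier results of these data known. The named genes were all members, up to 4 genes per list with the smallest unadjusted p of null minus het, others whose levels were set beside the members, and the 10 genes most like the members' mean. fs(1)N, yl, Mlc1, ndl, Pxt, yellow-g and Fcp3C were named after their values were seen. Alternatives covered moderation, a replicate block, a background block, centring on array medians, cyclic loess, a minimum mean of 5, trend and robust priors, array weights, folds of 1.5 and 3, single backgrounds, and leaving out arrays. The omission of het 2 with null 2, and the spread and likeness without het 2 or without het 2 and null 4, were added after the data had been seen. The number of arrays limits the precision, and p-values measure the spread between these samples.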

Additional observations from a re-analysis of the deposited data

How the results depend on the processing

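For null minus het, 0 members were called under every alternative run and by an adjusted p 0 members were called under every alternative of any comparison. The direction of the differences was not stable. Null minus het turned to 0.0095 for Vm26Aa with median centring, and to -1.0 for Vm26Ac, -0.61 for Vm32E, -0.12 for Vm34Ca and -0.64 for psd with array weights, which also moved it to -0.65 for Vm26Aa and -2.14 for dec (unadjusted p = 0.0507, limma, with 0 called). With het 2 and null 4 left out it turned to -0.90 for Vm26Ac, -0.56 for Vm32E, -0.35 for Vm34Ca and -0.86 for psd. Omitting het 2 together with null 2, an alternative added once the data had been seen, gave -0.14 for Vm26Ac, -0.16 for Vm32E and -0.14 for psd. In P30 alone it was 0.049 for Vm26Aa and -0.071 for psd. Leaving out 1 array at a time gave -0.86 to 0.56 for Vm26Aa, -0.23 to 1.94 for Vm26Ac, -0.24 to 1.29 for Vm32E, -0.20 to 0.39 for Vm34Ca, -0.63 to 0.53 for psd and -1.64 to 0.17 for dec. The interaction ranged from -1.61 to 1.37 for Vm26Aa, -2.33 to 2.30 for Vm26Ac, -1.79 to 0.57 for Vm32E, -0.71 to 0.61 for Vm34Ca, -0.80 to 1.17 for psd and -1.83 to 2.46 for dec.

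For P6 minus P30 the 5 members called became 3 without moderation, 3 with array weights, 1 with het 2 and null 4 left out and 2 with het 2 and null 2 left out, and 3 to 6 with 1 array left out. Each member kept a higher mean in P6 under each alternative run. Every member's difference was smaller with array weights, and with het 2 left out together with null 4 or null 2. For dec it fell from 2.65 to 1.58 with het 2 and null 4 left out. For Vm26Aa it fell from 2.02 to 0.91 with het 2 and null 2 left out, which is below a 2-fold change. The unmoderated fit kept all arrays and the same differences, but its SEs were larger, for dec 1.04 against 0.89. Fits with fewer arrays also have fewer degrees of freedom. The part of each in the lost calls was not tested.

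Deviations from the label means of het and null arrays 1 to 4 correlated at -0.0018, 0.38, 0.54 and -0.10 over all probe sets, and 4 of 8 arrays correlated best with the array of their own number, so the numbers were not taken as pairs. With the replicate block the SE of null minus het was 0.21 for psd to 1.21 for Vm26Ac, and 0 members were called. The SDs within a label moved by less than the spread under median centring and cyclic loess. An order by the lowest probe set could not be run, since each gene had 1 probe set. Signal over background was not analysed here, which limits the reading of dim values such as Vm26Ac in het 2.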

Other observations

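The genes next to the members were looked at after their values were seen. Ir7c, an ionotropic receptor family gene that directly follows dec on chromosome X, had signals of 7.23, 3.88, 8.16 and 6.27 in het 1 to 4 and 4.43, 6.37, 7.13 and 8.42 in null 1 to 4, with an SD of 1.63. Over the 8 arrays its r was 0.93 with both the members' mean and dec, and P6 minus P30 was 2.02 (SE 0.87, adjusted p = 0.514, limma). Ir7b, on the other side of dec, had r = 0.85 with the members' mean and an SD of 0.36. CG13998 and CG13992, which flank the Vm26A and psd genes on 2L, had r of 0.49 and 0.61 with that mean.

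Among 389 variable probe sets to which the annotation assigns no gene, the one most like the members' mean had r = 0.98. Its signal was 11.48, 8.21, 13.08 and 12.14 in het 1 to 4 and 10.52, 10.03, 12.48 and 13.03 in null 1 to 4, and it was lowest in het 2 and highest in het 3, as 5 of the 6 members were.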
